A study of Homo sapiens with 12 samples.

Results

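The TGF-β (transforming growth factor β) pathway was followed through 10 genes in U-87 MG cells under hypoxia. U-87 MG is an established human glioblastoma cell line. The genes were taken by symbol, as 10 of the 20263 genes in the expression table, and each had 1 entry. They are the ligand genes TGFB1, TGFB2, TGFB3 and INHBA, the genes of the latent TGF-β binding proteins LTBP1 and LTBP2, the receptor genes TGFBR1 and TGFBR2, the signaling inhibitor SKIL and the target gene TGFBI.

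Messenger RNA was sequenced in 4 groups of 3 libraries, all from U-87 MG cells held at 1% O2. The vector group carried an empty vector, HIF1α-ko cells had a knockout of HIF1α, HIF2α-ko cells had a knockout of HIF2α, and HIF1α/2α-ko cells, also called the double knockout, had both. The record of the experiment gives 72 h of hypoxia, and the methods of the study give a shorter exposure for mRNA detection. For other cell assays the methods describe 3 days at 1% O2 together with the drug temozolomide. The treatment labels of these libraries name no drug. Normoxic cells were not analysed here, so every comparison is between hypoxic cells with and without a HIF gene. Whether each knockout was a single clone or a mixed population is not given in the sources used here. Nothing says that the 3 libraries of a group came from separate cultures, so p-values measure only the spread between these libraries, which may be technical.

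TGF-β ligands are secreted in a latent complex, in which the propeptide holds the growth factor inactive and latent binding proteins such as LTBP1 tether it to the extracellular matrix. Once released, the ligand binds the type II receptor TGFBR2, which recruits and phosphorylates the type I receptor TGFBR1. TGFBR1 then phosphorylates SMAD2 and SMAD3, which enter the nucleus with SMAD4 and act on target genes. HIF1α and HIF2α, encoded by HIF1A and EPAS1, are the oxygen-regulated subunits of the hypoxia-inducible transcription factors, and in glioblastoma both hypoxia and TGF-β are known for their links to invasion and a mesenchymal state.

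Values are TPM, a unit that divides reads by gene length, scales each library to a fixed total and keeps no sequencing depth, so the depth behind each value is unknown. The targeted genes were checked first. HIF1A was at 124 ± 23.5 TPM in vector, 48.5 ± 9.35 for HIF1α-ko, 86.8 ± 18.1 for HIF2α-ko and 75.5 ± 11.9 for the double knockout, and EPAS1 at 322 ± 31.5, 265 ± 20.2, 107 ± 17.0 and 117 ± 14.4 (mean ± SD, n = 3). HIF1A mRNA was thus retained in part in the HIF1α-ko and HIF1α/2α-ko libraries, and EPAS1 mRNA in the HIF2α-ko and HIF1α/2α-ko libraries. In HIF1A the double knockout (67.8 to 89.2 TPM) overlapped with HIF2α-ko (76.1 to 107.7) and lay above HIF1α-ko (38.6 to 57.3). These mRNA levels do not show whether the proteins were lost. Vector replicate 1 stood apart from the other vector libraries, with a Pearson's r across genes of 0.968 and 0.966 against 0.989 between the other two, so changes of the 10 genes from vector whose call it changed, or whose size it moved by over 1.5 times, are also given without it. Of a list of 9 glioma and astroglia markers, VIM and CD44 were at 5635 TPM or more and 398 TPM or more in every library. GFAP, S100B and SOX2 of the same list stayed at or below 0.639, 0.837 and 0.0622 TPM, and AQP4 was listed at 0. Of the other markers in that list, ALDH1L1 was at 17.4 to 65.8, OLIG2 at 0.884 to 19.2 and NES at 2.64 to 6.17 TPM. Of 5 immune markers 1 reached 1 TPM, the lysosomal CD68, at 587 to 1633 TPM, and PTPRC and CD3E did not pass 0.0330 and 0.111 TPM. Of 4 endothelial markers 3 reached 1 TPM, of 4 epithelial markers 1 and of 3 neuronal markers 1. The highest value in these 3 lists was 4.28 TPM, for SNAP25.

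HIF proteins bind DNA at a short core, so the stretches upstream of 3 genes are shown: TGFBI and TGFBR2, with the largest called changes of the set, and LTBP1, the latent binding protein with the larger called change. They come from RefSeq on GRCh38.p14, run 5′ to 3′ on the plus strand and stop before the first annotated transcript start. Capitals mark each match of the HIF core ACGTG or GCGTG on either strand, where ACGTG and its reverse complement CACGT can overlap. The TGFBI stretch, at chr5:136028738-136028894 (157 bases), holds no match. The TGFBR2 stretch, at chr3:30606106-30606355 (250 bases), holds 1 match. The LTBP1 stretch, at chr2:32946703-32946952 (250 bases), holds 3 matches.
TGFBI: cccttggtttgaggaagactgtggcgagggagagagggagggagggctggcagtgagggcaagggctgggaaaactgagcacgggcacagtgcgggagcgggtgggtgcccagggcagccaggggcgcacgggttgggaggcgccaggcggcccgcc
TGFBR2: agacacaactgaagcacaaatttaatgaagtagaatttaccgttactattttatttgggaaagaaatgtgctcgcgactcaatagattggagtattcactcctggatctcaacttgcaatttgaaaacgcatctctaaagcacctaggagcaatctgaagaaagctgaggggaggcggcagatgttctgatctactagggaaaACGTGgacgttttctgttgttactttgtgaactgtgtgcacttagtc
LTBP1: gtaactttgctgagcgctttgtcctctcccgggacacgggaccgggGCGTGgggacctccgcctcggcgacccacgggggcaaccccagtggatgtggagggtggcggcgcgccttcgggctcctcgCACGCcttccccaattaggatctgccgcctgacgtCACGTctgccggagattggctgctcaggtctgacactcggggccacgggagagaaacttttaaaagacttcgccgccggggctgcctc

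Promoter windows, each from 250 bases before to 50 bases after a transcript start, were found for all 10 genes, 21 in all. The HIF core was found in 13 of these 21 windows (61.9%), and in 48.4% of all 35116 windows of the same length. By gene, 7 of the 10 had a window with the core, and INHBA, LTBP2 and TGFBI had none. Of the 3 LTBP1 windows 1 held the core, the most upstream one, and of the 2 TGFBR2 windows 2 did. The number of windows per gene ran from 1 to 8 (TGFBR1), and more windows give more chances of a match. The share of all genes with such a window was not computed, so the count by gene has no reference. The SMAD box CAGAC, searched on both strands, was found in 12 of the 21 windows (57.1%) and in 45.3% of all windows, and the windows of TGFB1, TGFBI and TGFBR2 held none. These matches describe letters in the windows and not binding.

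**Figure D1:**
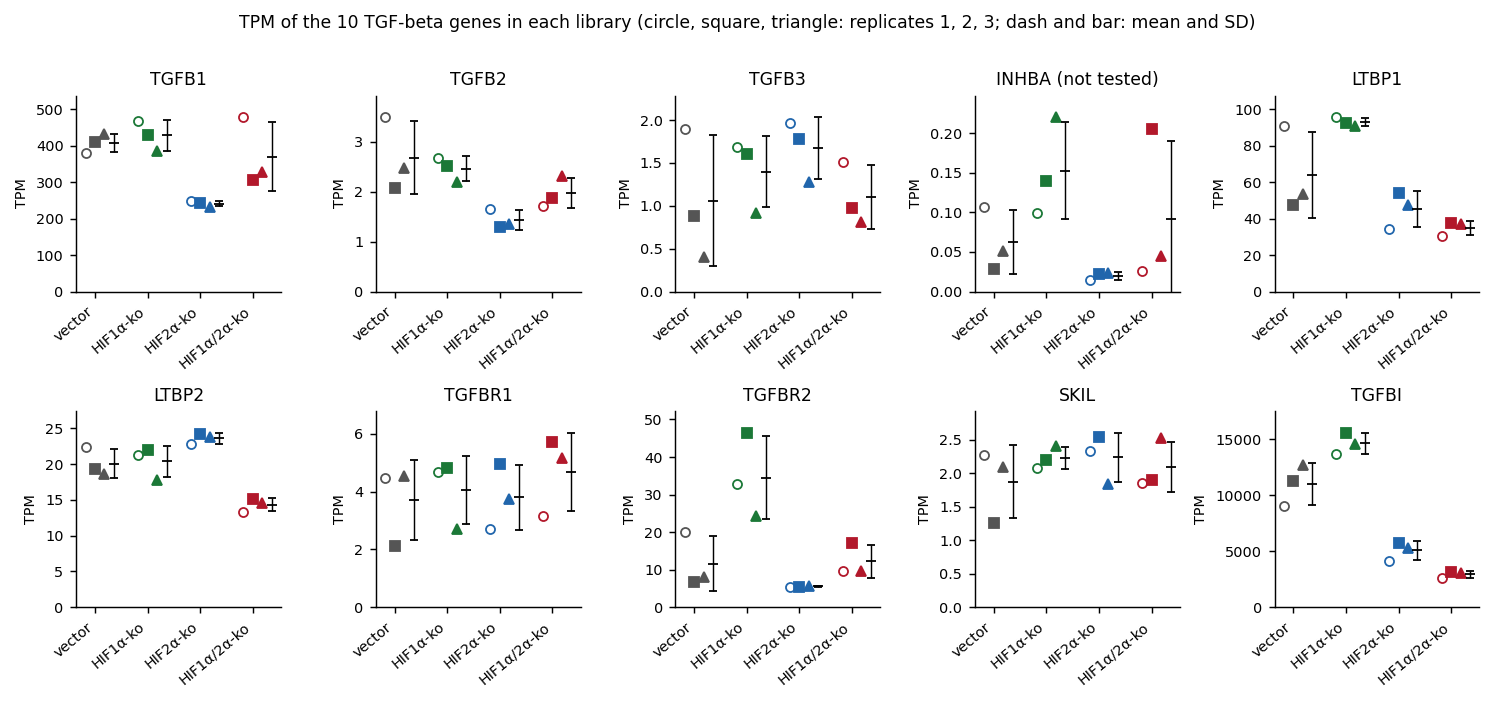
TPM (vertical axes, linear from 0) of the 10 TGF-β genes in each of the 12 libraries. Circles, squares and triangles are replicates 1, 2 and 3 of a group, and the dash with a bar is the group mean ± SD (n = 3), cut off at 0 for INHBA. TGFBI lies between 2609 and 3162 TPM in HIF1α/2α-ko against 9010 to 12704 in vector, and TGFBR2 between 24.3 and 46.4 TPM in HIF1α-ko against 6.86 to 20.1 in vector.

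Changes were tested on log2(TPM + 1), so a fold change understates that of a low gene. Of the 10 genes, 9 passed the filter of 1 TPM in at least 3 libraries and were tested, together with 11731 genes in all. INHBA did not pass. Every adjusted p below is from limma with Benjamini-Hochberg adjustment over the 11731 genes of a comparison, at a threshold of 0.05, and errors of log2 fold changes are standard errors. A lower level in bulk RNA cannot be told apart from fewer cells that express the gene. Over all tested genes, the median log2 change from vector was 0.18 for HIF1α-ko, -0.04 for HIF2α-ko and 0.21 for the double knockout, so a small rise in HIF1α-ko or the double knockout lies near the middle of all genes.

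TGFBI, which encodes a TGF-β-induced matrix protein that binds collagens and integrins, was the most abundant of the 10 genes and ranked between 4 and 51 among all genes in every library. Its level was 9010, 11282 and 12704 TPM in the vector libraries and 13704, 15523 and 14598 TPM in HIF1α-ko. It was 4150, 5769 and 5294 TPM in HIF2α-ko and 2609, 3162 and 3051 TPM in the double knockout. No 2 groups overlapped, and the order from high to low was HIF1α-ko, vector, HIF2α-ko and the double knockout. As a share of all TPM of a library, TGFBI took 0.901 to 1.27% in vector, 1.37 to 1.55% for HIF1α-ko, 0.415 to 0.577% for HIF2α-ko and 0.261 to 0.316% for the double knockout.

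TGFBI fell in HIF2α-ko by 1.12 ± 0.15 on the log2 scale (0.461-fold, adjusted p = 0.00198). It fell in the double knockout by 1.89 ± 0.15 (0.269-fold, adjusted p = 3.21e-06). The double knockout was also below each single knockout, with a log2 difference of -2.32 from HIF1α-ko (adjusted p = 2.19e-06) and -0.78 from HIF2α-ko (adjusted p = 0.00123). In HIF1α-ko the log2 change was 0.42 ± 0.15 (95% interval 0.10 to 0.75, adjusted p = 0.0562), which did not pass, and HIF1α-ko and vector are the neighbours in the order that were not separated. That change passed without vector replicate 3 (0.53, adjusted p = 0.0478), without HIF2α-ko replicate 1 (adjusted p = 0.0410) and without HIF1α/2α-ko replicate 1 (adjusted p = 0.0477), with quantile normalization (0.81, adjusted p = 0.00899), with the replicate number as a block (adjusted p = 0.00813) and when replicate 1 was left out of all groups (0.33, adjusted p = 0.00997). It was smaller with median ratio scaling (0.22, adjusted p = 0.326) and without vector replicate 1 (0.285, adjusted p = 0.137). The interaction term, in which the single-knockout changes are added up and taken from that of the double knockout, was -1.20 ± 0.21 for TGFBI (adjusted p = 0.00333). The fall in the double knockout was thus larger than the single knockouts add up to.

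Among the ligands, TGFB1 made up 98.6 to 99.3% of the summed TPM of TGFB1, TGFB2 and TGFB3 in every library. TGFB1 encodes the most widely expressed TGF-β isoform. It was at 379.6, 411 and 431 TPM in vector and 469, 430.5 and 386 TPM in HIF1α-ko. It was at 247, 242 and 233 TPM in HIF2α-ko and 478, 305 and 327 TPM in the double knockout. The 3 HIF2α-ko libraries lay below all 9 others, and the other 3 groups overlapped.

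TGFB1 fell in HIF2α-ko by 0.75 ± 0.15 (0.593-fold, adjusted p = 0.00971). With median ratio scaling the change was -0.71 and did not pass (adjusted p = 0.0537). HIF2α-ko was also below HIF1α-ko, by a log2 difference of 0.82 ± 0.15 (adjusted p = 0.00279), and below the double knockout, by 0.59 ± 0.15 (adjusted p = 0.00750). Both of these were lost with median ratio scaling (0.57, adjusted p = 0.0795, and 0.31, adjusted p = 0.257). In HIF1α-ko the log2 change of TGFB1 from vector was 0.07 (95% interval -0.26 to 0.40), and in the double knockout -0.16 (95% interval -0.50 to 0.17). Without vector replicate 1 the first value was 0.02. HIF1α/2α-ko replicate 1, at 478 TPM, decided the value in the double knockout. Without it, the log2 difference of the double knockout in TGFB1 was -0.36 from vector (adjusted p = 0.0227), -0.43 from HIF1α-ko (adjusted p = 0.0167) and 0.39 from HIF2α-ko.

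TGFB2 and TGFB3, the isoforms with narrower expression, were near the filter. TGFB2 was at 3.49, 2.07 and 2.47 TPM in vector, at 2.19 to 2.68 for HIF1α-ko, at 1.29 to 1.65 for HIF2α-ko and at 1.72 to 2.31 for the double knockout. All HIF2α-ko libraries lay below all others. TGFB2 fell in HIF2α-ko by 0.58 ± 0.17 (0.669-fold, adjusted p = 0.0454). This call was lost without a filter (adjusted p = 0.0556), in the fit of these groups alone (adjusted p = 0.111) and without any single library other than vector replicate 2 or HIF1α/2α-ko replicate 1. The value was -0.43 without vector replicate 1 (adjusted p = 0.0713) and -0.54 without HIF2α-ko replicate 2 (adjusted p = 0.145). In the double knockout the log2 change was -0.29 (adjusted p = 0.173), -0.45 with median ratio scaling (adjusted p = 0.0328), -0.48 with quantile normalization (adjusted p = 0.0229) and -0.14 without vector replicate 1 (adjusted p = 0.473). In HIF1α-ko it was -0.07, and 0.08 without vector replicate 1. The reads of TGFB2 and TGFB2-OT1 cannot be fully separated, since 26.6% of the TGFB2 exonic bases lie in TGFB2-OT1 on the same strand.

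TGFB3 was at 1.90, 0.879 and 0.400 TPM in vector, and 7 of the 12 libraries reached 1 TPM. The other groups ranged from 0.918 to 1.68 in HIF1α-ko, 1.27 to 1.97 in HIF2α-ko and 0.812 to 1.52 in the double knockout, within the spread of vector except for HIF2α-ko replicate 1 at 1.97. No change of TGFB3 from vector passed, with log2 values of 0.27, 0.43 and 0.08 and 95% intervals of -0.27 to 0.81, -0.11 to 0.97 and -0.46 to 0.62. Without vector replicate 1, the values were 0.55 (adjusted p = 0.0712), 0.71 (adjusted p = 0.0398) and 0.36 (adjusted p = 0.195). INHBA, which encodes the activin A subunit, was between 0.0142 and 0.220 TPM in every library.

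LTBP1, which anchors the latent complex, was at 90.8, 47.5 and 53.4 TPM in vector and 95.6, 92.8 and 90.9 TPM in HIF1α-ko. It was at 34.5, 53.9 and 47.3 TPM in HIF2α-ko and 30.5, 37.5 and 36.9 TPM in the double knockout. Vector replicate 1 lay with the HIF1α-ko libraries, just below their lowest value, and the other vector libraries lay within the HIF2α-ko range.

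LTBP1 fell in the double knockout by 0.80 ± 0.22 (0.574-fold, adjusted p = 0.0109), and without vector replicate 1 the change was -0.52 (adjusted p = 0.0276). In HIF1α-ko its log2 change was 0.59 ± 0.22 (adjusted p = 0.0674), which passed without vector replicate 1 (0.87, adjusted p = 0.00303). The value in HIF2α-ko was -0.45 (95% interval -0.94 to 0.03, adjusted p = 0.215), and -0.175 without vector replicate 1 (adjusted p = 0.513). Between knockouts, LTBP1 was higher in HIF1α-ko than in HIF2α-ko by 1.05 (adjusted p = 0.00584) and than in the double knockout, for which the log2 difference was -1.39 (adjusted p = 0.000808). The double knockout and HIF2α-ko differed by -0.35 (adjusted p = 0.225), and this difference passed with the replicate number as a block in the 3 knockout groups (adjusted p = 0.0420), with median ratio scaling (-0.615, adjusted p = 0.0221), with quantile normalization (-0.65, adjusted p = 0.0246) and when replicate 1 was left out of all groups (-0.43, adjusted p = 0.00626).

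LTBP2, a matrix protein of the same family that does not bind latent TGF-β, was at 22.4, 19.3 and 18.6 TPM in vector and 21.3, 21.9 and 17.8 TPM in HIF1α-ko. It was at 22.8, 24.2 and 23.7 TPM in HIF2α-ko and 13.3, 15.2 and 14.6 TPM in the double knockout. The HIF1α/2α-ko libraries lay below all others, and the HIF2α-ko libraries above all others.

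LTBP2 fell in the double knockout by 0.45 ± 0.13 (0.730-fold, adjusted p = 0.0148), a call that was lost in the fit of these groups alone (adjusted p = 0.0671). It was lower in the double knockout than in each single knockout, with a log2 difference of -0.68 from HIF2α-ko (adjusted p = 0.00140) and -0.47 from HIF1α-ko (adjusted p = 0.0200). The last was lost without HIF1α-ko replicate 1 (adjusted p = 0.0628), HIF1α-ko replicate 2 (adjusted p = 0.0761) or HIF1α/2α-ko replicate 3 (adjusted p = 0.0543). In the single knockouts the log2 change of LTBP2 from vector was 0.02 in HIF1α-ko (95% interval -0.27 to 0.31), or 0.095 without vector replicate 1, and 0.23 in HIF2α-ko (95% interval -0.07 to 0.52). The interaction term of LTBP2 was -0.70 ± 0.19 (adjusted p = 0.0234), and it did not pass without vector replicate 3 (-0.65), HIF1α-ko replicate 2 (-0.65), HIF2α-ko replicate 2 (-0.68) or HIF2α-ko replicate 3 (-0.69). For LTBP1 it was -0.94 ± 0.32 (adjusted p = 0.0526), which passed with median ratio scaling (-1.01, adjusted p = 0.0237) and quantile normalization (-1.18, adjusted p = 0.0162), and it was -1.22 without vector replicate 1 (adjusted p = 0.00299) and -1.12 without HIF2α-ko replicate 1 (adjusted p = 0.0318).

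Of the receptors, TGFBR2, the type II receptor that binds the ligand, was at 20.1, 6.86 and 7.98 TPM in vector and 32.9, 46.4 and 24.3 TPM in HIF1α-ko. It was at 5.46, 5.48 and 5.71 TPM in HIF2α-ko and 9.65, 17.2 and 9.79 TPM in the double knockout. All HIF1α-ko libraries lay above, and all HIF2α-ko libraries below, the other 9 libraries. The HIF1α/2α-ko libraries overlapped with vector.

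TGFBR2 rose in HIF1α-ko by 1.59 ± 0.35 on the log2 scale (3.01-fold, adjusted p = 0.00688), and by 2.03 without vector replicate 1 (adjusted p = 0.000371). In HIF2α-ko the log2 change was -0.80 ± 0.35 (95% interval -1.56 to -0.05, adjusted p = 0.162), and -0.36 without vector replicate 1. In the double knockout it was 0.16 (95% interval -0.59 to 0.92), and 0.61 without vector replicate 1 (adjusted p = 0.0923). HIF1α-ko was above HIF2α-ko by 2.39 ± 0.35 (5.25-fold, adjusted p = 0.000597), and the double knockout was below HIF1α-ko, with a log2 difference of -1.43 (adjusted p = 0.00954).

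The double knockout was above HIF2α-ko in TGFBR2 by 0.96 ± 0.35 (adjusted p = 0.0380). This call was lost with median ratio scaling (0.72, adjusted p = 0.0873), with quantile normalization (0.61, adjusted p = 0.156) and without a filter (adjusted p = 0.0710). It was also lost without HIF2α-ko replicate 1 (adjusted p = 0.0839), 2 (adjusted p = 0.0823) or 3 (adjusted p = 0.0744), and without HIF1α/2α-ko replicate 2 (0.71, adjusted p = 0.153) or 3 (1.09, adjusted p = 0.0511). The interaction term of TGFBR2 was -0.62 (95% interval -1.69 to 0.44, adjusted p = 0.393).

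TGFBR1, the type I receptor kinase, was between 2.11 and 5.71 TPM, and every group overlapped with every other. Its log2 changes from vector were 0.13 in HIF1α-ko (95% interval -0.49 to 0.74), 0.05 in HIF2α-ko (-0.57 to 0.67) and 0.29 in the double knockout (-0.33 to 0.91), none past the threshold. Without vector replicate 1 the first was 0.26 and the second 0.185. The ratio of TGFBR2 to TGFBR1 TPM was 7.05 to 9.64 in HIF1α-ko, against 1.76 to 4.50 in vector, 1.10 to 2.01 in HIF2α-ko and 1.90 to 3.06 in the double knockout. SKIL, which encodes the SnoN repressor of SMAD complexes and is itself a TGF-β target, was between 1.26 and 2.55 TPM. Its log2 changes of 0.18, 0.18 and 0.12 did not pass, with 95% intervals of -0.20 to 0.56, -0.20 to 0.56 and -0.26 to 0.50, and without vector replicate 1 they were 0.29, 0.29 and 0.22.

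**Figure D2:**
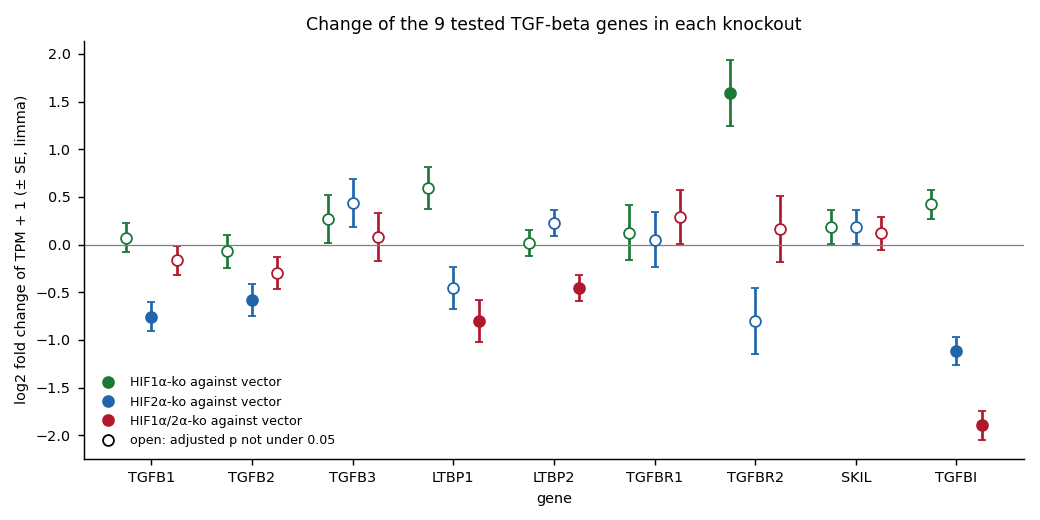
Log2 fold change of TPM + 1 against vector (vertical axis) for the 9 tested TGF-β genes in the 3 knockouts, with limma standard errors as bars. Filled points have an adjusted p under 0.05: TGFBR2 alone in HIF1α-ko, TGFB1, TGFB2 and TGFBI in HIF2α-ko, and LTBP1, LTBP2 and TGFBI in HIF1α/2α-ko.

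Counted over the 9 tested genes, 1 rose and 0 fell in HIF1α-ko, where 26.1% of all tested genes passed (17.3% higher and 8.77% lower). In HIF2α-ko 3 fell and 0 rose, where 11.0% of all genes passed (5.07% higher and 5.89% lower). In the double knockout 3 fell and 0 rose, where 46.7% of all genes passed (31.8% higher and 14.8% lower). The median log2 change of the 9 genes was 0.18, -0.45 and -0.16, against 0.18, -0.04 and 0.21 over all tested genes. TGFBI was the 1 gene of the set called in both HIF2α-ko and the double knockout. These 3 comparisons share the vector libraries. Median ratio scaling moved the split of all genes from 2031 higher and 1029 lower to 1278 and 1527 in HIF1α-ko, from 595 and 691 to 753 and 579 in HIF2α-ko, and from 3732 and 1741 to 2854 and 2600 in the double knockout.

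Without vector replicate 1 the counts against vector were 2 of 9 in HIF1α-ko (TGFBR2 and LTBP1, higher), 3 of 9 in HIF2α-ko (TGFB1 and TGFBI lower, TGFB3 higher) and 3 of 9 in the double knockout (lower). The counts over all genes in that fit were 4194, 2497 and 5672, against 3060, 1286 and 5473 with it. Between knockouts, 5 of the 9 genes were higher in HIF1α-ko than in HIF2α-ko and 0 lower (TGFB1, TGFB2, LTBP1, TGFBR2 and TGFBI), where 25.1% of all tested genes passed (17.8% higher and 7.37% lower). Of these, TGFB2 was the weakest, at a log2 difference of 0.51 (adjusted p = 0.0440), and it was lost with median ratio scaling (adjusted p = 0.137), with quantile normalization (adjusted p = 0.184), without a filter (adjusted p = 0.0510) and without any single library other than vector replicate 1 or 2 or HIF1α/2α-ko replicate 1. TGFBI differed by 1.54 ± 0.15 (2.90-fold, adjusted p = 3.09e-05). With median ratio scaling 3 of the 9 genes were higher and 1, LTBP2, was lower (-0.45, adjusted p = 0.0282), and of all genes 1032 were higher and 1300 lower, against 2084 and 865.

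The double knockout was below HIF1α-ko in 4 of the 9 genes and above in 0 (LTBP1, LTBP2, TGFBR2 and TGFBI), where 28.3% of all tested genes passed (17.7% higher and 10.6% lower). Against HIF2α-ko, 2 were higher (TGFB1 and TGFBR2) and 2 lower (LTBP2 and TGFBI), where 46.4% of all tested genes passed (33.5% higher and 12.9% lower). With the replicate number as a block in the knockout groups, TGFB3 (-0.35, adjusted p = 0.0283) and LTBP1 were also lower, which makes 6. With median ratio scaling 0 were higher and 3 lower, and of all genes 2748 were higher and 2468 lower, against 3933 and 1509. The interaction term passed for 2 of the 9 genes, TGFBI and LTBP2, both negative, where 20.6% of all tested genes passed (13.2% positive and 7.35% negative). Without vector replicate 1 it passed for 4, with LTBP1 and TGFB3 (-0.90, adjusted p = 0.0383) added.

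**Figure D3:**
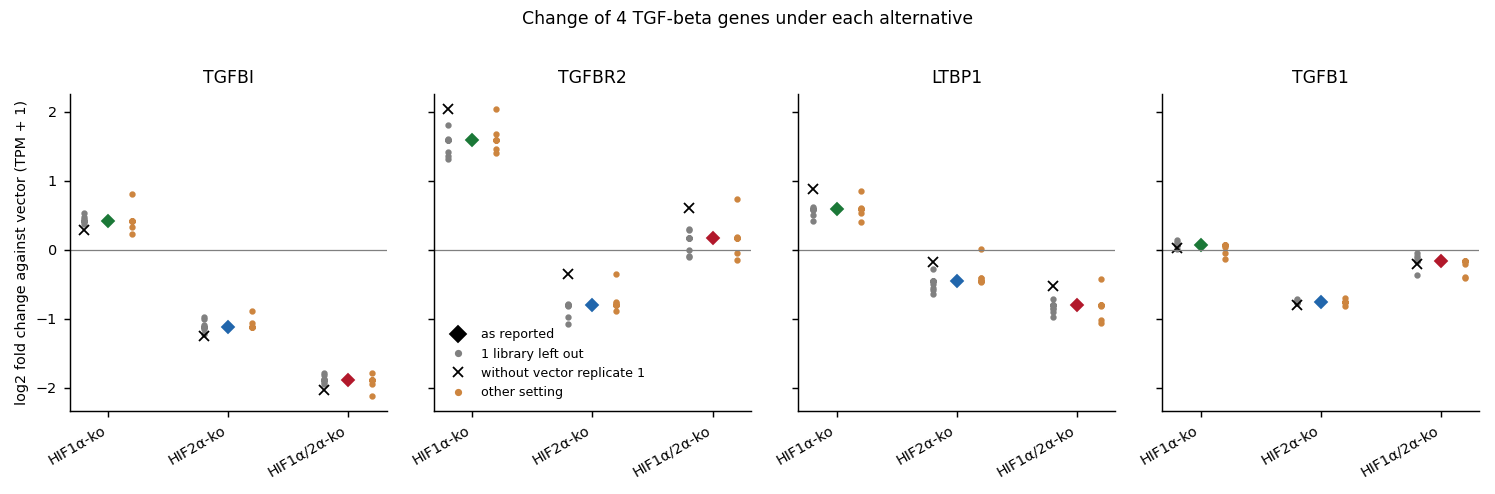
Log2 fold change of TPM + 1 against vector (vertical axes) of TGFBI, TGFBR2, LTBP1 and TGFB1 as reported (diamonds), with 1 library left out (grey points, with a cross for vector replicate 1) and under the other settings tried (orange points). TGFBI stays below 0 in HIF2α-ko and HIF1α/2α-ko and TGFBR2 above 0 in HIF1α-ko under each of them, while LTBP1 moves from -0.80 to -0.52 in HIF1α/2α-ko without vector replicate 1.

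Another 76 genes of the pathway were taken from a list by role, without the 10 genes above, and 59 of them were tested. In HIF1α-ko 9 rose and 7 fell, in HIF2α-ko 5 rose and 6 fell, and in the double knockout 18 rose and 15 fell. These are 27.1, 18.6 and 55.9% of the 59 genes, beside 26.1, 11.0 and 46.7% of all tested genes. The median log2 change was 0.09, -0.16 and 0.21. Without vector replicate 1 the counts were 15 up and 9 down, 10 up and 11 down, and 22 up and 16 down, and those over all genes rose as well, to 4194, 2497 and 5672 from 3060, 1286 and 5473. The genes named below are the 2 of each role with the smallest p in the double knockout.

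Among the SMADs and their adaptors, SMAD3, a receptor-activated SMAD, was at 105 ± 37.8 TPM in vector, 114 ± 15.9 for HIF1α-ko, 33.3 ± 7.18 for HIF2α-ko and 28.5 ± 11.6 for the double knockout. It fell in HIF2α-ko by 1.59 ± 0.28 (adjusted p = 0.00596) and in the double knockout by 1.86 ± 0.28 (adjusted p = 0.000219). As in TGFBI, all libraries of HIF2α-ko and the double knockout lay below all libraries of vector and HIF1α-ko. TRIM33, which binds SMAD2 and SMAD3, was near the filter at 0.740 ± 0.162 TPM in vector and 1.37 ± 0.288 in the double knockout. Its rise of 0.44 (adjusted p = 0.0305) was lost in 8 alternatives, among them the fits without vector replicate 1 (0.39) or 3 (0.42) and without HIF1α/2α-ko replicate 2 (0.38) or 3 (0.40), and the change was 0.80 with a pseudocount of 0.1 (adjusted p = 0.0556).

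Genes that inhibit or turn over the signal had 9 rises and 3 falls among 15 tested in the double knockout, with a median log2 change of 0.85. Over all tested genes 31.8% were higher and 14.8% lower there, with a median of 0.21, which also stands beside the counts of the other roles below. In HIF1α-ko 3 rose and 2 fell (median -0.04), and in HIF2α-ko 0 rose and 1 fell (median -0.26). Over all tested genes 17.3% were higher and 8.77% lower in HIF1α-ko, and 5.07% higher and 5.89% lower in HIF2α-ko. The single-knockout counts of the roles below stand beside these shares. Counts and medians by role were not recomputed under other settings. BAMBI, a decoy receptor without a kinase domain, was at 109 ± 6.26 TPM in vector, 97.2 ± 4.78 for HIF1α-ko, 107 ± 20.2 for HIF2α-ko and 303 ± 101 for the double knockout, a rise of 1.42 ± 0.20 (adjusted p = 0.000113). STRAP, which recruits SMAD7 to the receptor, was at 29.9 to 40.7 TPM in vector, 30.7 to 39.3 in HIF1α-ko and 23.3 to 28.6 in HIF2α-ko, and at 71.7 to 98.6 TPM in the double knockout, a rise of 1.37 ± 0.17 in the double knockout (adjusted p = 5.70e-05). The others that rose there were FST, PMEPA1, PPM1A, SKI, SMURF1, TGIF1 and WWP1, and the 3 that fell were BGN, DCN and NEDD4L. NEDD4L is a ubiquitin ligase of SMADs, and BGN and DCN are matrix proteoglycans that bind TGF-β. BGN was at 16.9, 53.7 and 53.2 TPM in vector and 8.09 to 10.4 in the double knockout. DCN was at 5.77, 2.13 and 0.762 TPM in vector and 0.216 to 0.264 in the double knockout. Of the genes that rose, FST and PMEPA1 were also low in vector, at 0.727 to 1.13 and 0.947 to 1.02 TPM.

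Among the 19 tested transcriptional targets, 4 rose and 7 fell in the double knockout, with a median log2 change of -0.67, against -0.05 in HIF1α-ko (2 up, 5 down) and -0.04 in HIF2α-ko (3 up, 3 down). COL1A1, a fibrillar collagen chain, was at 21.0 ± 5.23 TPM in vector, 22.2 ± 1.01 in HIF1α-ko and 20.3 ± 3.51 in HIF2α-ko. It fell to 6.65 ± 1.09 TPM in the double knockout, by 1.51 ± 0.19 (adjusted p = 6.68e-05). ANGPTL4, an inhibitor of lipoprotein lipase that is a target of both TGF-β and HIF, was at 128 ± 32.3 TPM in vector. It fell by 1.12 ± 0.21 in HIF1α-ko (adjusted p = 0.00327), rose by 1.41 ± 0.21 in HIF2α-ko (adjusted p = 0.00297) and fell by 1.95 ± 0.21 in the double knockout (adjusted p = 2.31e-05). Among the others, ADAM12, FN1, SNAI2 and TGFB1I1 fell in the double knockout, and CDKN1A, JUNB, SNAI1 and SPHK1 rose. SNAI2 overlapped, with HIF1α/2α-ko replicate 1 (135 TPM) above vector replicate 1 (111 TPM). FN1 was at 169 TPM in vector replicate 1, near the double knockout (106 to 145), and at 586 and 629 TPM in the other vector libraries. In the double knockout JUNB was at 233 TPM in replicate 1 and 115 in replicate 2. CDKN1A there was at 193 TPM in replicate 2, against 472 and 489. Both genes stayed above all vector libraries.

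Of the genes for latent storage and activation, 1 of 10 tested rose and 3 fell in the double knockout. FURIN, a protease that cleaves the TGF-β precursor, was at 24.9, 4.42 and 5.41 TPM in vector, 29.9 to 34.6 for HIF1α-ko, 24.1 to 31.2 for HIF2α-ko and 53.1 to 55.2 for the double knockout. FURIN rose in HIF1α-ko by 1.78 ± 0.43 (adjusted p = 0.0105) and in the double knockout by 2.52 ± 0.43 (adjusted p = 0.000476). For HIF2α-ko the rise was 1.53 ± 0.43 (adjusted p = 0.0386). Vector replicate 1 lay above HIF2α-ko replicate 3 in FURIN, and without that vector library the rises were 2.49 for HIF1α-ko, 3.23 for the double knockout and 2.24 for HIF2α-ko. Leaving out vector replicate 3 ended the call in HIF1α-ko (adjusted p = 0.0514). The call in HIF2α-ko ended in 11 alternatives, with adjusted p = 0.163 without vector replicate 3, 0.134 without vector replicate 2, and 0.0530 to 0.109 without HIF1α-ko replicate 2 or 3, any HIF2α-ko library, or HIF1α/2α-ko replicate 2 or 3. LRRC32, a cell-surface anchor of latent TGF-β, was at 5.59 ± 0.442 TPM in vector, 4.34 ± 0.826 for HIF1α-ko, 2.98 ± 0.189 for HIF2α-ko and 0.912 ± 0.135 for the double knockout. It fell in HIF2α-ko by 0.73 ± 0.15 (adjusted p = 0.0121), a call lost without vector replicate 3 (adjusted p = 0.0536) or HIF2α-ko replicate 3 (adjusted p = 0.0558), and in the double knockout by 1.79 ± 0.15 (adjusted p = 5.40e-06).

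Of 7 other receptors and co-receptors tested, 1 rose in HIF1α-ko, 0 changed in HIF2α-ko, and 2 rose and 1 fell in the double knockout. ACVR1B, an activin type I receptor, rose from 6.07 ± 0.780 TPM in vector to 13.3 ± 0.853 in HIF1α-ko and 16.0 ± 3.08 in the double knockout, by 1.02 ± 0.17 (adjusted p = 0.00198) and 1.25 ± 0.17 (adjusted p = 0.000113), and was at 5.20 ± 0.842 TPM in HIF2α-ko. TGFBR3, the co-receptor betaglycan, was at 1.96 ± 0.301 TPM in vector and 3.40 ± 1.12 in the double knockout. Its rise of 0.54 (adjusted p = 0.0437) was lost in 13 alternatives and was 0.34 without HIF1α/2α-ko replicate 1. Of the other ligands, 2 of 8 were tested. INHBE, an activin E subunit, was at 6.94, 2.30 and 1.90 TPM in vector and rose in HIF2α-ko, at 10.7 to 11.8 TPM, by 1.52 ± 0.30 (adjusted p = 0.00858, and 0.0519 in the fit of these groups alone) and in the double knockout, at 8.29 to 9.04 TPM, by 1.19 ± 0.30 (adjusted p = 0.00635). In HIF1α-ko its value of 0.46 passed without vector replicate 1 (0.91, adjusted p = 0.00206). GDF11, at 4.92 to 7.41 TPM in all libraries, passed against vector in no knockout.

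**Figure D4:**
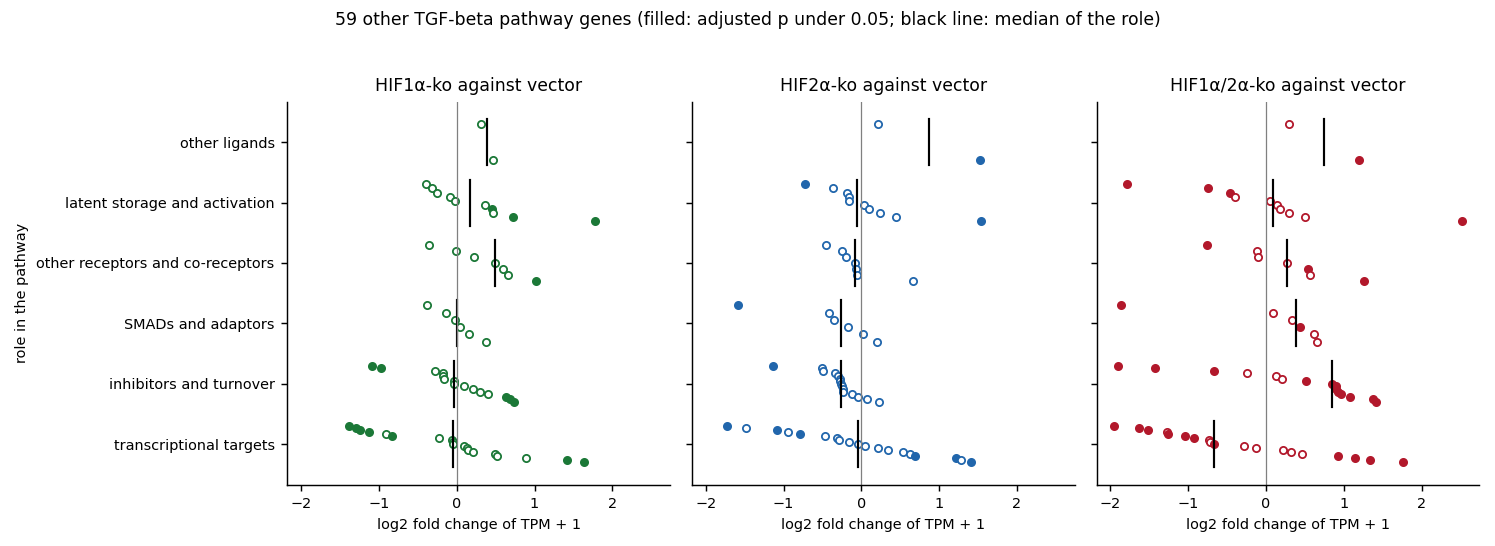
Log2 fold change of TPM + 1 against vector (horizontal axes) of the 59 other TGF-β pathway genes by role (vertical axis), with 1 panel per knockout. Filled points have an adjusted p under 0.05 and a black line marks the median of a role, which is 0.85 for inhibitors and turnover and -0.67 for transcriptional targets in HIF1α/2α-ko.

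Between knockouts, the list had 12 higher and 11 lower genes in the double knockout than in HIF1α-ko, 20 higher and 10 lower than in HIF2α-ko, and 10 higher and 5 lower in HIF1α-ko than in HIF2α-ko. Over all tested genes 28.3, 46.4 and 25.1% passed in these comparisons, against 39.0, 50.8 and 25.4% of the list. With the replicate number as a block in the knockout groups these counts rose from 23 to 35, from 30 to 46 and from 15 to 30, and those over all genes from 3322 to 5684, from 5442 to 7339 and from 2949 to 5927. With median ratio scaling the second count was 14 higher and 15 lower, and that of HIF2α-ko against vector 5 up and 4 down. The interaction term passed for 14 genes of the list (23.7%, beside 20.6% of all tested genes), 9 positive and 5 negative, or 8 and 7 with quantile normalization.

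For TGFB1 and TGFB2, the 3 tested genes with the most similar levels were found by Pearson's r of log2(TPM + 1) over the 12 libraries, as a description of libraries that share groups. For TGFB1 they were NSL1 (0.914), TMEM63B (0.909) and ARF5 (0.906). For TGFB2 they were C12orf75 (0.914), OTX1 (0.906) and RNF26 (0.904). Each of the 10 genes lies at 1 place in GRCh38 by GENCODE 29, and those with called changes are TGFBI at chr5:136028895-136063818, TGFBR2 at chr3:30606502-30694142, TGFB1 at chr19:41301587-41353911, TGFB2 at chr1:218346235-218444619, LTBP1 at chr2:32946972-33399509 and LTBP2 at chr14:74498170-74612378. Exonic bases of TGFB1 (6.64%, HNRNPUL1), LTBP1 (3.40%), LTBP2 (2.28%) and TGFB3 (3.32%) are shared with a gene on the opposite strand, and whether reads were counted by strand is not given in the sources used here.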

How the data were processed

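Messenger RNA libraries were prepared from total RNA with a commercial kit. The authors deposited a single table of TPM values, 1 column per library, in which reads are divided by gene length and each library is scaled to the same total. The submitters' processing notes name FastQC 0.11.2, Trimmomatic 0.36, HISAT2 2.0, bedtools 2.26.0 and GRCh38. The counting tool and the annotation are not given in the sources used here. No counting error could be given, since the depth is unknown, and a large change in abundant genes moves the values of the others. Groups came from the labels, and vector columns were recognised by having no knockout code.

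Symbols were found for 20148 genes in a name table and for 76 through GENCODE 29. Genes that reached 1 TPM in 3 libraries or more (11731) entered limma 3.58.1 (R 4.3.3) as log2(TPM + 1), using 1 model of the 4 groups and a trended prior variance. Adjusted p is from limma with Benjamini-Hochberg adjustment in each contrast, with calls at 0.05 and confidence intervals at 95%. The fit was tested on simulated data with independent libraries, which cannot show whether p-values hold where libraries share deviations. Python 3.11.15 with pandas 2.3.3, numpy 2.4.6 and matplotlib 3.10.9 made the tables and plots. The 10 genes, the pathway list and the rule for named genes (the 10, HIF1A, EPAS1, of each role the 2 genes of smallest p for HIF1α/2α-ko, and the 3 genes most like each ligand) were chosen with earlier results of these data known. The genes most like TGFB3 and some members of the pathway list are not reported here by name.

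The counts of the 10 genes, of the whole pathway list and of all genes were recomputed under other settings. So were the changes of the tested genes among the 10, HIF1A, EPAS1 and the named pathway genes. The settings were a pseudocount of 0.1, no filter, a mean of 5 TPM or more, median ratio scaling and quantile normalization. Further fits were restricted to the groups compared, left out the trend or took the replicate number as a block. Others left out replicate 1 of every group or each library in turn. Counts and medians by role, TPM ratios, promoter matches and the most similar genes were not recomputed. The count of the 10 genes was also taken at log2 changes of 1 or more in size. A block on the knockout groups alone was added after seeing the data. Deviations from the group means of same-numbered libraries correlated across genes in the knockout groups (Pearson's r 0.196 to 0.508) and less against vector (-0.0265 to 0.163). Among the knockout groups r was 0.463 to 0.508 for replicate 1 and 0.196 to 0.25 for replicates 2 and 3. Libraries of unlike number were not compared. Paired libraries therefore cannot be told apart from a replicate 1 that stands apart in each group. The block on the knockout groups rests on these values, and the sources used here do not say what a number marks. Unless a block is named, p-values between knockouts come from the fit without it.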

Additional observations from a re-analysis of the deposited data

Results flagged for a closer look

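For 10 of the named genes the change in HIF1α/2α-ko differed from what the single knockouts add up to. This is the interaction term on the log2 scale, by limma with Benjamini-Hochberg adjusted p under 0.05. Over all tested genes 20.6% passed, and of the 59 tested genes of the whole pathway list 23.7%. The 12 named pathway genes were picked by their p in HIF1α/2α-ko, a change that enters this term. Their count therefore cannot be set against these shares. The term was -1.20 for TGFBI (adjusted p = 0.00333) and -0.70 for LTBP2 (adjusted p = 0.0234). Of the other pathway genes it was -2.24 for ANGPTL4 (adjusted p = 0.000993), 1.62 for STRAP (adjusted p = 0.00158), 1.63 for BAMBI (adjusted p = 0.00274) and -1.57 for COL1A1 (adjusted p = 0.00299). STRAP and BAMBI were thus higher, and TGFBI, LTBP2, ANGPTL4 and COL1A1 lower, than the sum. The call of the LTBP2 term was lost in 4 alternatives.

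Smaller terms were 0.76 for TRIM33 (adjusted p = 0.0272), -0.75 for LRRC32 (adjusted p = 0.0308) and 0.95 for TGFBR3 (adjusted p = 0.0366), and each of these was lost in 7 to 10 alternatives. For the targeted gene HIF1A it was 1.15 (adjusted p = 0.0131), and its mRNA fell by 1.34 on the log2 scale in HIF1α-ko and by 0.71 in HIF1α/2α-ko.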

How the results depend on the processing

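In each alternative run, TGFBI kept its direction and its call in HIF2α-ko (log2 -1.25 to -0.88) and HIF1α/2α-ko (-2.12 to -1.78), as did TGFBR2 in HIF1α-ko (1.32 to 2.04) and LTBP1 in HIF1α/2α-ko (-1.06 to -0.43). Of 88 gene results, 40 kept direction and call throughout, and the 28 changes of sign were all of values that passed in neither fit. The cause of the changes below was not tested. Depth could not be weighed, since TPM keeps none.

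Of the 9 tested genes, the number called in HIF1α-ko was 1, and 2 with quantile normalization, 2 with the replicate block, 3 without replicate 1 of every group and 1 to 2 with 1 library left out. At log2 changes of 1 or more it was 1 in HIF2α-ko, 1 in HIF1α/2α-ko, 0 in HIF1α/2α-ko against HIF2α-ko, 3 in HIF1α-ko against HIF2α-ko and 1 for the interaction. By adjusted p alone the interaction count was 2, and it was 5 without replicate 1 of every group and 1 to 4 with 1 library left out. For the pathway list, without replicate 1 of every group, the counts were 40 in HIF1α-ko, 28 in HIF2α-ko, 29 in HIF1α-ko against HIF2α-ko and 32 for the interaction, while those over all genes rose from 3060 to 6461, 1286 to 4283, 2949 to 5521 and 2414 to 5040, and a fit of the groups compared only gave 5 in HIF2α-ko (474 over all genes). With 1 library left out the list's counts ranged from 8 to 24 in HIF1α-ko, 5 to 21 in HIF2α-ko, 14 to 29 in HIF1α/2α-ko against HIF1α-ko, 8 to 22 in HIF1α-ko against HIF2α-ko and 10 to 25 for the interaction.

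The replicate block on all groups gave 24 genes of the list in HIF1α-ko against HIF2α-ko. On the knockout groups alone, the replicate block gave 35 in HIF1α/2α-ko against HIF1α-ko, 46 against HIF2α-ko and 30 in HIF1α-ko against HIF2α-ko, and it ended no call of the 10 genes.

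Values that passed in neither fit changed sign. Against vector with median ratio scaling they were, in HIF1α-ko, -0.13 for TGFB1, -0.17 for LTBP2 and -0.029 for TGFBR1, and in HIF1α/2α-ko -0.019 for TGFB3, -0.044 for TGFBR2 and -0.028 for SKIL. With quantile normalization they were -0.11 for LTBP2, -0.071 for TGFBR1 and -0.024 for SKIL in HIF1α-ko, and -0.16 for TGFBR2 and -0.067 for SKIL in HIF1α/2α-ko. Without replicate 1 of every group they were -0.047 for TGFB1 and 0.035 for TGFB2 in HIF1α-ko and 0.003 for LTBP1 in HIF2α-ko, which was -0.45 with all libraries. With 1 library left out, the ranges that crossed 0 were, in HIF1α-ko, -0.19 to 0.081 for TGFB2, -0.035 to 0.11 for LTBP2 and -0.15 to 0.33 for TGFBR1. They were -0.22 to 0.22 for TGFBR1 in HIF2α-ko, and -0.17 to 0.36 for TGFB3, -0.11 to 0.61 for TGFBR2 and -0.046 to 0.22 for SKIL in HIF1α/2α-ko.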
